A study of Mus musculus with 168 samples.

Results

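A set of 9 transport and junction genes was followed across single brain cells. They are Gja1, Gjb6, Aqp4, Kcnj10, Kcnj16, Atp1b2, Slc4a4, Cldn10 and Mlc1, 9 of the 42405 genes with a symbol, and they were chosen by name as a set of membrane proteins linked to astrocytes. All 9 were present in the deposited values. Levels are transcripts per 1000000 (TPM), a share of a cell's transcripts that already takes transcript length into account, so levels of different genes can be set side by side.

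The cells came from male C57BL/6 mice and were picked by hand after sorting, then read by Smart-seq2, which makes 1 library per cell. The striatum gave 13 cells (11 named OGStr and 2 named OStr) and the somatosensory cortex gave 4, all sorted as GLAST+ CD45- O4- from mice labelled 25 months. The subventricular zone (SVZ), a stem cell niche of the adult brain, gave cells sorted as GLAST+ CD133+ CD45- O4- and labelled 23 months, though the protocol of those cells names 22 months. They carry 2 name series, ogp with 68 cells and ogp2 with 65. The striatum was cut free of the SVZ, tissue of 3 to 4 mice was pooled for the astrocytes, and no mouse is named for any cell. Each tissue is therefore 1 sample: SD and ranges below describe cells, no difference was tested, and mice, age, gate and deposited table cannot be told apart from tissue in any comparison of astrocytes with SVZ cells. Another 18 libraries, made from cell populations, are not analysed here.

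SVZ cells were also divided by the share of TPM held by 79 ribosomal protein genes, which is a range of a score and not a cell type. Most were under 3% (low-ribosome cells, 46 ogp and 55 ogp2), 11 lay between 3% and 6% (intermediate) and 21 were at 6% or more (ribosome-rich, 15 ogp and 6 ogp2). The cells nearest the lower limit had 2.93% and 3.08%, those nearest the upper limit 5.81% and 6.39%, and 10 and 7 cells lay within 2.5% to 3.5% and 5% to 7%. All astrocytes were under 3%. The astrocyte markers Slc1a2, Slc1a3, Aldh1l1, Aldoc, Glul, S100b and Slco1c1 were each found in at least 50% of cells in striatum, in cortex and in low-ribosome SVZ cells (7 of 7), and 5 of 7 in ribosome-rich cells. Detection of these markers at this limit therefore does not tell the tissues apart. Their mean levels were not all alike: Glul, S100b and Slco1c1 were higher in cortex than in striatum or low-ribosome SVZ cells. Columns summed to between 999576 and 1000000 TPM except in 5 ogp cells (66189 to 309864, 4 of them low-ribosome and 1 ribosome-rich), and every cell was rescaled to 1000000.

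Astrocytes are joined to one another by gap junctions, channels through which ions and small molecules pass from cell to cell. In these cells the channels are built mainly from connexin 43 (Gja1) and connexin 30 (Gjb6). The water channel Aqp4 and the inward rectifier potassium channels Kcnj10 (Kir4.1) and Kcnj16 (Kir5.1) sit in astrocyte membranes, where Kcnj10 takes part in clearing potassium released by neurons and Kcnj16 works as a partner subunit of Kcnj10. Atp1b2 is a beta subunit of the sodium pump, Slc4a4 a sodium bicarbonate cotransporter, Cldn10 a claudin and Mlc1 a membrane protein of astrocyte junctions and endfeet that acts with Hepacam in volume regulation. Stem cells of the SVZ are related to astrocytes and share many of these genes.

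The 2 connexin genes are shown first because the median of their proportion within a cell differed between astrocytes and SVZ cells. Gja1 spans chromosome 10, positions 56377330 to 56402513, on the plus strand, and Gjb6 spans chromosome 14, positions 57123303 to 57133611, on the minus strand (GENCODE M21, GRCm38). No exon of another gene overlapped the exons of any of the 9. The 250 bases before each start site are printed 5′ to 3′ from RefSeq on GRCm38.p6, at chr10:56377050-56377299 (plus strand) and chr14:57133612-57133861 (minus strand), both outside the transcripts. Capitals mark CG dinucleotides, the site of DNA methylation in mammals.

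Gja1: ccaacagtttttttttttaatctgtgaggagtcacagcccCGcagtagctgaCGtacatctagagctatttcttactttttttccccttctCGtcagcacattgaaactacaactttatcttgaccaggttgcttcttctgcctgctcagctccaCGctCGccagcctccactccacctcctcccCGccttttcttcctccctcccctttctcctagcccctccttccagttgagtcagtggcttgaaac

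Gjb6: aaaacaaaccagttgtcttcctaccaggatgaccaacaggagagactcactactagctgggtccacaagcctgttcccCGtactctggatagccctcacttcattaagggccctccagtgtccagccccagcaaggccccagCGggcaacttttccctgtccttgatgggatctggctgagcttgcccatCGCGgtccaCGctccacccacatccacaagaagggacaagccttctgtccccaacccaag

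The Gja1 window held 6 CG dinucleotides and the Gjb6 window 5, against a median of 6 over the 32851 windows of the same length, and their GC content was 50.0% and 56.8% (median 52.4%). The windows were searched on both strands for TTGGCA (an NFI binding core, in 12.3% of all windows), ACAAT (SOX core, 27.7%), CACGTG (an E box, 6.02%), GGGCGG (an Sp1 core, 32.7%), TATAAA (core promoter box, 12.4%) and CCAAT (NF-Y core, 33.8%), and neither connexin window held any of these 6. A search for TGAGTCA, the AP-1 motif, was added after the sequences had been seen. It matched in the Gja1 window and not in the Gjb6 window, and matches in 4.46% of all windows. Of the 9 genes 7 had an entry, with 12 start sites, and Aqp4 and Atp1b2 had none. CG content in the other windows ran from 0 in Mlc1 to 44 at the first start site of Slc4a4, with 17 in Kcnj10.

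Gja1, Gjb6, Atp1b2, Cldn10 and Mlc1 were abundant transcripts of striatal and cortical astrocytes and of low-ribosome SVZ cells alike. In striatal cells mean TPM was 2156 for Gja1, 1689 for Gjb6, 1408 for Atp1b2, 1358 for Cldn10 and 568 for Mlc1. Aqp4 averaged 253 TPM, Slc4a4 107.9, Kcnj16 66.5 and Kcnj10 9.32. Gja1 ranked 41 among all genes by mean TPM in striatal cells, 39 in cortical cells and 31 in low-ribosome SVZ cells.

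**Figure D1:**
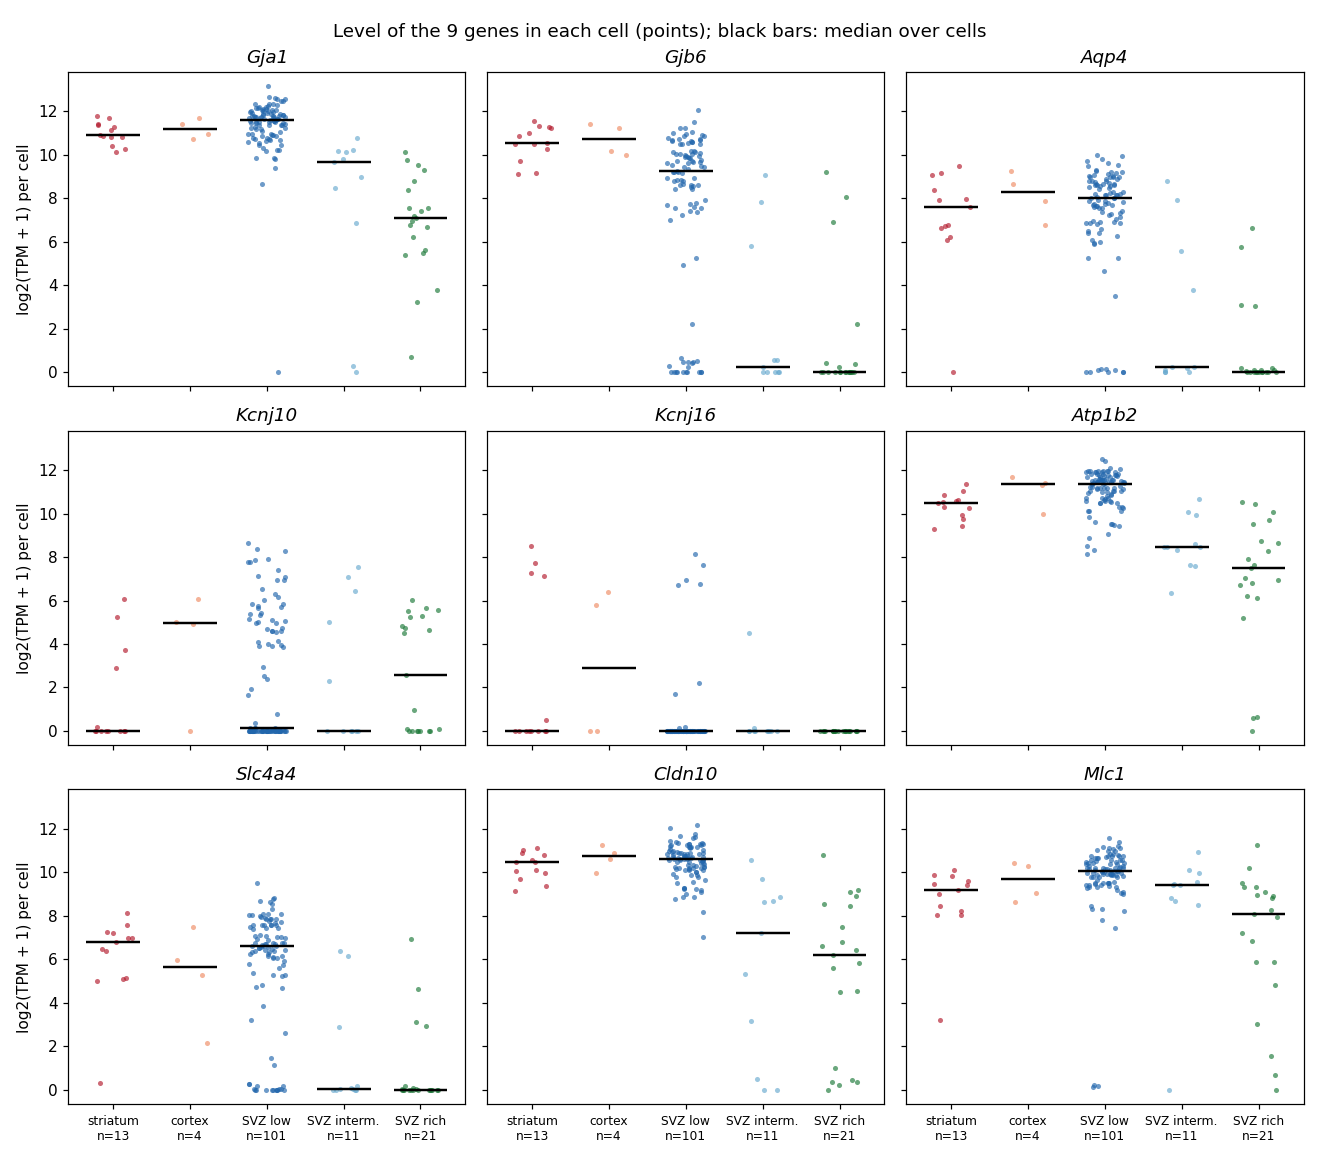
Level of each gene per cell as log2(TPM + 1), 1 panel per gene, for striatum, cortex and the low, intermediate and ribosome-rich SVZ classes; each point is 1 cell and black bars are medians over cells. Gja1, Atp1b2, Cldn10 and Mlc1 are high in nearly all cells of the first 3 groups and lower in ribosome-rich cells, while Kcnj10 and Kcnj16 are at or near 0 in many cells of every group.

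Gja1 was at 1 TPM or more in all 13 striatal cells, in 4 of 4 cortical cells and in all but 1 of the low-ribosome SVZ cells. It ran from 1126 to 3479 TPM in striatal cells (median 1945). The 4 cortical cells held 1704, 3271, 1994 and 2756 TPM, and low-ribosome cells ran from 0 to 9134 TPM (median 3062). Striatal and cortical values lay inside the SVZ range, although 11 of 13 striatal cells were below the SVZ median. The mean in low-ribosome cells was 3131 ± 1504 TPM (SD over cells) and in striatal cells 2156 ± 745 (SD over 13 cells). The low-ribosome cell without Gja1 was also below 1 TPM for Gjb6, Aqp4, Kcnj10, Slc4a4 and Mlc1 and held 358 TPM of Atp1b2. Going down by mean, the neighbours low-ribosome, cortex and striatum did not differ beyond the larger SD of each pair.

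By mean over whole groups, Gjb6 was lower in low-ribosome SVZ cells than in either kind of astrocyte. This did not hold in both striatal name series. Cortical cells had the highest mean (1828 ± 867 TPM, SD over 4 cells), followed by striatal cells (1689 ± 780 TPM, SD over 13 cells) and low-ribosome SVZ cells (792 ± 766 TPM, SD over cells). The cortical cells held 2396, 1010, 1169 and 2738 TPM. Striatal cells ran from 559 to 2964 TPM with a median of 1514, and low-ribosome cells from 0 to 4236 TPM with a median of 618. OGStr cells averaged 1868 TPM. The 2 OStr cells held 573 and 846 TPM, and their mean of 709 TPM was below the low-ribosome mean. Of the 13 striatal cells 11 exceeded the low-ribosome median, as did all 4 cortical cells, but the ranges overlapped. The step from striatum to low-ribosome cells was larger than the larger SD, and that from cortex to striatum was not. Gjb6 reached 1 TPM in 82.2% of low-ribosome cells and in all 13 striatal and 4 cortical cells.

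Within a cell, the part of connexin TPM that came from Gjb6 was 45.8% in the median striatal cell (18.6% to 64.7%) and 43.4% in the median cortical cell (23.6% to 58.4%), against 16.96% in the median low-ribosome SVZ cell (0 to 59.8%). All 13 striatal cells were above the low-ribosome median, and 10 low-ribosome cells were above the striatal median. The groups still overlapped, with 46 low-ribosome cells above the lowest striatal cell. The low-ribosome median was 15.3% in ogp cells and 19.7% in ogp2 cells. In striatal cells the name series stood apart: the OGStr mean was 46.6%, and the 2 OStr cells had 18.6% and 27.2%, below every OGStr cell (lowest 30.6%). No cell of any group had Gjb6 at 1 TPM or more without Gja1, while 17 low-ribosome cells had Gja1 alone.

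**Figure D2:**
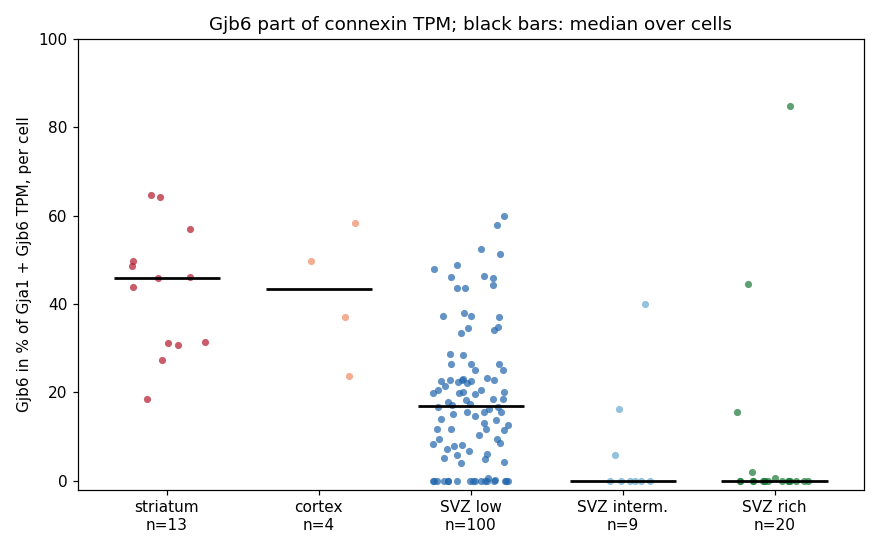
Gjb6 as a percentage of the summed Gja1 and Gjb6 TPM in each cell that held at least 1 TPM of the 2 together; points are cells, black bars medians, and n is the number of such cells. Striatal and cortical medians are 45.8% and 43.4%, the low-ribosome SVZ median is 16.96% and the ribosome-rich median is 0.

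Aqp4 was at 1 TPM or more in 12 of 13 striatal cells, 4 of 4 cortical cells and 92 low-ribosome SVZ cells (91.1%). The medians were 195, 318 and 256 TPM, and the cortical cells held 109.08, 401, 235 and 602 TPM. Striatal cells ran from 0 to 711 TPM and low-ribosome cells from 0 to 1017 TPM, so the ranges overlapped fully.

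The potassium channel genes were sparse. Kcnj10 reached 1 TPM in 4 of 13 striatal cells (30.8%, exact Clopper-Pearson 95% interval 9.09% to 61.4%), in 3 of 4 cortical cells and in 48 low-ribosome SVZ cells (47.5%, 37.5% to 57.7%). These intervals cover counting error only, and TPM does not give the depth of a cell. The 4 striatal cells held 12.4, 6.35, 36.5 and 65.7 TPM, the 3 cortical cells 31.5, 66.4 and 28.8 TPM, and the highest low-ribosome cell 396 TPM.

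Kcnj16 was found in 4 of 13 striatal cells, in 2 of 4 cortical cells and in 7 low-ribosome cells (6.93%, exact interval 2.83% to 13.8%). The striatal cells with Kcnj16 held 155, 140, 359 and 211 TPM and the cortical cells 53.95 and 83.8 TPM, whereas the 7 low-ribosome cells ran from 2.21 to 284 TPM. All 4 of these striatal cells were OGStr, and 0 of the 2 OStr cells had it. Kcnj10 and Kcnj16, whose proteins can form a joint channel, were found in the same cell in 2 striatal cells, 1 cortical cell and 3 low-ribosome cells, close to the 1.23, 1.5 and 3.33 cells that their separate shares would give.

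Atp1b2 was found in every striatal, cortical and low-ribosome SVZ cell. Its median was 1456 TPM in striatum (633 to 2653) and 2650 TPM in low-ribosome cells (285 to 5768), and the cortical cells held 2558, 3260, 2714 and 1010 TPM. Of 13 striatal cells 12 lay below the low-ribosome median, and the step from the cortical mean (2386 TPM) to the striatal mean (1408 TPM) exceeded the larger SD of the pair. Slc4a4 had medians of 111.98 TPM in striatum, 49.7 in cortex and 96.3 in low-ribosome cells, and was found in 12 of 13 striatal cells, 4 of 4 cortical cells and 84.2% of low-ribosome cells.

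Cldn10 was found in every cell of these groups, with medians of 1409 TPM in striatum, 1731 in cortex and 1581 in low-ribosome cells. The cortical cells held 1577, 991, 1885 and 2468 TPM, inside the low-ribosome range of 129.01 to 4633 TPM. Mlc1 was lower in striatum, with a median of 580 TPM (8.19 to 1101) against 1068 TPM in low-ribosome cells (0.1 to 3100), and 12 of 13 striatal cells lay below that median. The cortical cells held 1385, 394, 533 and 1264 TPM of Mlc1, on both sides of it.

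To compare groups in 1 number per gene, the log2 ratio of (mean TPM + 1) was used, with 2-fold as the limit and genes at 10 TPM or more in either group as background. The added 1 TPM shrinks ratios of low genes. Against all SVZ cells, striatal cells had 2 of 9 genes at least 2-fold higher (12.3% of 9080 genes were) and 1 at least 2-fold lower (28.3%). The higher ones were Kcnj16 (log2 3.20) and Gjb6 (1.46), and the lower one was Kcnj10 (-1.78). Kcnj16 averaged 6.34 TPM in SVZ cells and Kcnj10 9.32 TPM in striatal cells, so Kcnj16 could not have been called lower, nor Kcnj10 higher. Medians were 0 in both groups for Kcnj16, and 0 and 0.3 TPM for Kcnj10. Kcnj10 was found in 30.8% of striatal and 48.1% of SVZ cells, with overlapping exact intervals (9.09% to 61.4%, 39.4% to 56.9%). The median of the 9 log2 ratios was 0.05, against -0.26 over all genes compared. Averaging logs over cells instead gave 5 genes at least 2-fold higher and a median of 1.02, and turned Gja1 from -0.20 to 0.66 and Atp1b2 from -0.51 to 0.13. Cortical cells likewise had 2 of 9 at least 2-fold higher than SVZ cells (20.7% of 8940 genes), again Kcnj16 (2.27) and Gjb6 (1.57), and 0 at least 2-fold lower (43.4%). Averaged logs gave 5 higher and a median of 1.40 in place of 0.25, with Kcnj10 at 1.40 in place of -0.12. These 2 comparisons share the SVZ cells.

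Set against the low-ribosome SVZ cells alone, striatal cells had 2 of 9 genes at least 2-fold higher (14.2% of 8831 genes), Kcnj16 (2.89) and Gjb6 (1.09), and 2 at least 2-fold lower (24.5%), Kcnj10 (-1.89) and Mlc1 (-1.02). The medians of Kcnj16 and Kcnj10 were 0 in striatal cells, and 0 and 0.1 TPM in low-ribosome cells, so these 2 ratios rest on means only. Atp1b2 was at -0.83, Gja1 at -0.54 and Cldn10 at -0.28. Aqp4 and Slc4a4 were both at -0.21. Mlc1 lay at the limit and was under 2-fold with values as deposited. The Gjb6 value ranged from 0.95 to 2.81 over 11 alternatives and was past 2-fold in 9 of them. It rests on the OGStr cells, since the 2 OStr cells averaged 709 TPM of Gjb6 against 792 TPM in low-ribosome cells.

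Between striatum and cortex, 0 of 9 genes had a striatal mean at least 2-fold above the cortical one (38.3% of 8276 genes were) and 1 was at least 2-fold lower (28.9%), Kcnj10 at -1.66. Kcnj10 was found in 4 of 13 striatal and 3 of 4 cortical cells, with means of 9.32 and 31.7 TPM. With 4 cortical cells, single cells moved the counts of higher and lower genes: leaving out each in turn gave 0 to 2 higher and 1 to 2 lower. Gja1 (-0.17) and Gjb6 (-0.11) had nearly equal means in the 2 regions. Each of the 2 changed sign under some of the 11 alternatives, as did Aqp4, Cldn10 and Kcnj16. Slc4a4 was at 0.61, Kcnj16 at 0.93, Atp1b2 at -0.76 and Mlc1 at -0.65.

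Within the SVZ, the genes were much lower in cells rich in ribosomal protein transcripts. Of the 8 genes with at least 10 TPM in either class, 7 were at least 2-fold lower in ribosome-rich than in low-ribosome cells (23.0% of 9283 genes were) and 0 at least 2-fold higher (26.8%). The median of the 8 was a log2 ratio of -3.20, against 0.16 over all genes compared, and ran from -4.65 to -1.84 over the alternatives. In order of size the ratios were -5.05 for Aqp4, -4.07 for Gjb6, -3.89 for Slc4a4, -3.56 for Gja1, -2.84 for Cldn10, -2.73 for Atp1b2, -1.45 for Mlc1 and -0.99 for Kcnj10. This order, from both name series pooled, did not hold within each. Among these 8 genes, Gjb6 (-9.42), Slc4a4 (-6.69) and Aqp4 (-5.83) came first in ogp cells. In ogp2 cells Aqp4 (-4.02), Gja1 (-2.61) and Gjb6 (-2.41) did, with Slc4a4 at -1.95. Kcnj16, under 10 TPM in both classes, was listed at 0 in all 21 ribosome-rich cells (upper bound of the exact interval 16.1% of cells).

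Gja1 averaged 264 ± 318 TPM in ribosome-rich cells (SD over 21 cells; 0.63 to 1129 TPM, median 136) and ranked 598 by mean TPM. None of the 21 cells reached the lower quartile of the low-ribosome cells for Gja1, Aqp4 or Atp1b2, 1 did for Slc4a4 and for Cldn10, and 2 did for Gjb6 and for Mlc1. Gja1 was nevertheless still found in 20 of 21 cells, Atp1b2 in 18, Mlc1 in 19 and Cldn10 in 15. Aqp4, Gjb6 and Slc4a4 were each found in 4 of 21 (19.0%, exact interval 5.45% to 41.9%). This held in the 15 ogp cells (Gjb6 in 0, Slc4a4 in 1, Aqp4 in 3), but of the 6 ogp2 cells 4 had Gjb6, 3 had Slc4a4 and 1 had Aqp4.

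Aqp4 and Mlc1, both proteins of astrocyte endfeet, differed here in the share of cells that had them. Both were found together in 90 low-ribosome cells (89.1%) and in 4 of 21 ribosome-rich cells, where another 15 cells had Mlc1 alone. The joint counts were close to the 89.3 and 3.62 cells that their separate shares would give. Mlc1 had a median of 272 TPM in ribosome-rich cells and reached 2475 TPM in 1 of them. Kcnj10 was found in 11 of 21 ribosome-rich cells, a share of 52.4% against 47.5% in low-ribosome cells. Its median was higher in ribosome-rich cells (5.03 against 0.1 TPM) while its mean was lower (18.2 against 37.3 TPM), so no direction is given for it.

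**Figure D3:**
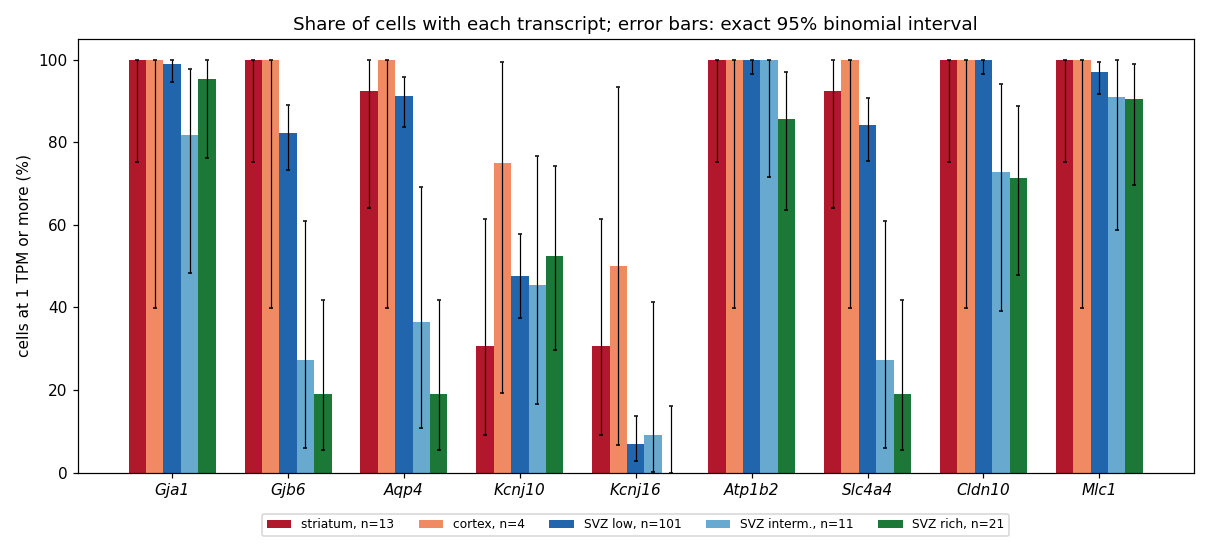
Percentage of cells with each gene at 1 TPM or more in striatum, cortex and the 3 SVZ classes; bars start at 0 and error bars are exact 95% binomial intervals, which cover counting error only. Gjb6, Aqp4 and Slc4a4 each drop to 19.0% in ribosome-rich cells, whereas Gja1 and Mlc1 stay above 90%.

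The 11 intermediate cells lay between the classes for Gja1 (mean 720 TPM), Gjb6 (75.5), Aqp4 (67.7), Slc4a4 (14.6), Cldn10 (348), Atp1b2 (540) and Mlc1 (740). In that class Aqp4 was found in 4 cells, Gjb6 and Slc4a4 in 3, and Atp1b2 in all 11. Over all SVZ cells the Spearman correlation of level with ribosomal share was -0.70 for Gja1 and for Atp1b2, -0.64 for Cldn10, -0.52 for Aqp4, -0.49 for Gjb6, -0.47 for Slc4a4 and -0.37 for Mlc1, and near 0 for Kcnj10 (0.00) and Kcnj16 (-0.01). Within low-ribosome cells alone it was -0.39 for Atp1b2, -0.36 for Gja1 and -0.29 for Cldn10, and between -0.15 and 0.06 for the other 6. Level and ribosomal share come from the same library and the same total, so these are descriptions. The highest ribosomal share was 14.9%, and rescaling without the ribosomal protein genes left 7 genes at least 2-fold lower with a median of -3.10.

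**Figure D4:**
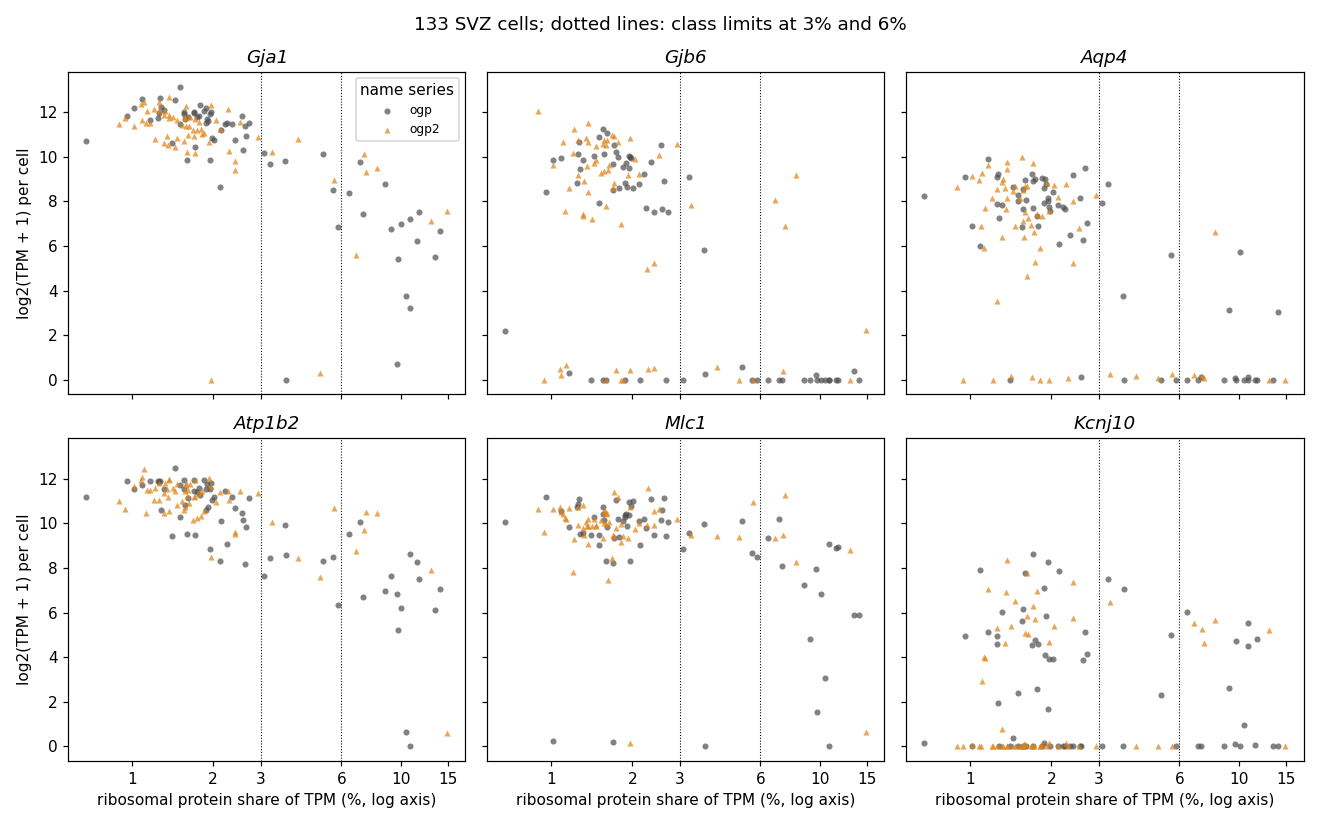
Level of 6 of the genes as log2(TPM + 1) against the ribosomal protein share of TPM (log axis) in all SVZ cells; circles are ogp cells, triangles ogp2 cells, and dotted lines mark 3% and 6%. Gja1 and Atp1b2 are lower to the right (Spearman -0.70 each), Gjb6 and Aqp4 are at or near 0 in most cells above 6%, and Kcnj10 shows no such slope (0.00).

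Other features moved with the ribosomal class. Summed TPM of the 7 astrocyte markers had a median of 15352 (2876 to 25411) in low-ribosome cells and 1238 (273 to 13827) in ribosome-rich cells. The 8 markers of activated stem cells (Egfr, Mki67, Top2a, Cdk1, Mcm2, Ccnd2, Dlx1 and Dlx2) had median sums of 33.2 (0 to 424) and 897 TPM (68.8 to 4929.6). Mki67 and Mcm2 were not found in any low-ribosome cell. Each of the 8 was found in some ribosome-rich cells, but several only in a minority of them. Of the 21 ribosome-rich cells, 21 had Ccnd2, 20 Egfr, 12 Mcm2, 10 Top2a, 9 Mki67 and 8 Cdk1. Dlx1 and Dlx2 were each found in 4, none of them ogp2 cells. Median sums of the 6 neuroblast markers (Dcx, Stmn2, Tubb3, Sox11, Cd24a and Nrxn3) were 0 (0 to 241) and 201 TPM (0 to 821). Sox11 gave the largest part in ribosome-rich cells (mean 173 TPM, found in 20 cells). Tubb3 was found in 8 of these cells, Cd24a in 6, Dcx in 2 and Stmn2 in 1. Nrxn3 went the other way, with a mean of 5.53 TPM in low-ribosome and 0.17 TPM in ribosome-rich cells. Detected genes numbered 3250 in the median low-ribosome cell and 6326 in the median ribosome-rich cell. The part of these in the difference was not tested. TPM is a share of a cell's transcripts, so RNA per cell was not measured.

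The 2 name series of SVZ cells differed in the ribosome-rich class. There, by mean, 8 of 8 genes with at least 10 TPM were at least 2-fold higher in the 6 ogp2 cells than in the 15 ogp cells (21.4% of 8943 genes were), with a median log2 ratio of 1.65. Gjb6, Slc4a4 and Aqp4 averaged under 10 TPM in ogp cells, so none of them could have been called lower. Aqp4 was found in 1 of 6 ogp2 and 3 of 15 ogp cells, so its ratio rests on 1 ogp2 cell. Mlc1 and Cldn10 means each lean on 1 high ogp2 cell, though their medians were also higher in ogp2 cells. Gjb6 was found in 0 of 15 ogp cells (upper bound 21.8%) and in 4 of 6 ogp2 cells, at 266, 118.2, 584 and 3.64 TPM. Mean Gja1 was 178 and 478 TPM and mean Mlc1 284 and 766 TPM. The activated stem cell sum had a median of 905 TPM in ogp and 638 TPM in ogp2 cells, the astrocyte sum 1117.8 and 4168 TPM, and the ribosomal share 10.0% and 7.78%, and their part in this was not tested. In low-ribosome cells the series had a median ratio of -0.14 over the 9 genes, with only Kcnj16, found in 3 and 4 cells, past 2-fold (1.98; 11.8% of 8825 genes were). Compared within series, 8 of 8 genes were at least 2-fold lower in ribosome-rich than in low-ribosome cells in ogp (27.3% of 9482 genes; median -4.03). In ogp2, 7 of 9 were (27.2% of 9089 genes; median -1.95), with Kcnj16 listed at 0 in the ribosome-rich cells and Mlc1 (-0.57) and Kcnj10 (0.07) the exceptions. Kcnj16 was compared only because low-ribosome ogp2 cells averaged 12.8 TPM, and 4 of those 55 cells had it. It could thus not have been called higher, and its absence from 6 cells says little.

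Counted per cell, the median striatal cell had 7 of the 9 genes at 1 TPM or more (6 to 9), the median cortical cell 8 (8 to 9), the median low-ribosome SVZ cell 7 (3 to 9), and the median intermediate and ribosome-rich cell 5. Of low-ribosome cells 78 had 7 or more (77.2%), and of ribosome-rich cells 3 did (14.3%). Summed over the 9 genes, the median was 7779 TPM in striatum, 9721 in cortex, 9949 in low-ribosome cells, 2579 in intermediate cells and 715 in ribosome-rich cells.

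Among low-ribosome cells the genes varied together only loosely. Over the 36 pairs the Spearman correlation of log2(TPM + 1) had a median of 0.14 and ran from -0.16 to 0.49, over cells that share class and method but come from 2 name series. The closest pairs were Gja1 with Atp1b2 (0.49), Aqp4 with Slc4a4 (0.40) and Atp1b2 with Cldn10 (0.39). Over only the cells in which both genes were found, these were 0.47, 0.26 (81 cells) and 0.39. Gja1, Atp1b2 and Cldn10 each also correlated with the number of detected genes in low-ribosome cells (-0.32, -0.26 and -0.25). Over all SVZ cells, which span the ribosomal classes, the median of the 36 pairs was 0.39.

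Each member was compared by the same measure with 1529 genes found in at least 50% of low-ribosome cells. The lowest correlation ran from -0.43 for Atp1b2 to -0.31 for Kcnj10. For Mlc1 (-0.34) and Kcnj16 (-0.35) it was larger in size than the highest. The genes most like each member were as follows. Gja1 was closest to Atp1b2 (0.49), and the tetraspanin Tspan7 (0.44) was also among its closest. Atp1b2 was closest to Gja1 (0.49) and the receptors Gpr37l1 (0.47) and Ntsr2 (0.46). Cldn10 was closest to Tspan7 (0.45), Ntsr2 (0.41) and Atp1b2 (0.39). Aqp4 was closest to Hacd2 (0.48) and Slc4a4 (0.40). Slc4a4 was closest to Aqp4 (0.40), and Abhd3 (0.37) was also among its closest. Gjb6 was closest to the secreted Mfge8 (0.39), Pla2g7 (0.39) and Tmem176b (0.36). The closest genes to Kcnj10 (Syne1, 0.38; Nr3c2, 0.36; Tpd52l2, 0.33), Mlc1 (Tmem50a, 0.32; Tmed7, 0.30; Map4, 0.28) and Kcnj16 (Psma1, 0.31; Idh2, 0.30; Ech1, 0.29) had correlations of at most 0.38, and Kcnj16 rests on 7 cells.

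A list of 80 other junction and transport genes was read in the same way. Between ribosome-rich and low-ribosome cells 40 of the 80 had at least 10 TPM, of which 24 were at least 2-fold lower (23.0% of all genes compared were) and 3 at least 2-fold higher (26.8%), with a median of -1.15 against 0.16 over all genes. Between striatal and low-ribosome cells 39 had at least 10 TPM, 9 at least 2-fold lower (24.5% of all genes compared) and 4 higher (14.2%), with a median of -0.12 against -0.17 over all genes, close to the background.

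Of the other connexins, Gjb2 (connexin 26) averaged 60.5 TPM in striatum, 9.61 in cortex, 53.9 in low-ribosome and 6.71 in ribosome-rich cells, with a median of 0 in each. Gjc3 averaged 0.58, 1.19, 6.17 and 0.403 TPM. Its mean of 47.2 TPM in intermediate cells came from few cells, as only 2 of 11 reached 1 TPM and the median was 0.29 TPM. The pannexin channel gene Panx1 was found in 0 striatal and cortical cells, in 1 low-ribosome cell and in 10 of 21 ribosome-rich cells, where it averaged 36.8 TPM. Among other aquaporins, Aqp11 was the most abundant, at 32.9 TPM in striatum, 175 in cortex and 49.4 in low-ribosome cells, and Aqp9 averaged 21.1, 0 and 12.1 TPM.

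Of the other potassium channels the 3 with the highest mean over all cells are given. The 2-pore channel Kcnk1 averaged 584 TPM in striatum, 894 in cortex, 650 in low-ribosome and 60.5 in ribosome-rich cells (log2 -3.40 between the last 2). The calcium-activated channel Kcnn2 had means of 128.8, 153, 131.2 and 128.5 TPM in the same order, but its medians were 107.98, 68.5, 2.5 and 73.1 TPM. Its relative Kcnn3 averaged 51.6, 65.3 and 24.8 TPM in the first 3 and was at 1 TPM or more in 0 ribosome-rich cells. Among other sodium pump genes, the regulator Fxyd1 averaged 736, 464, 960 and 231 TPM, and the beta subunit Atp1b1 175, 589, 421 and 187 TPM.

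Carbonic anhydrase Car2, which makes the bicarbonate that Slc4a4 carries, averaged 569.5 TPM in striatum, 1196 in cortex, 303 in low-ribosome and 4.57 in ribosome-rich cells, a log2 ratio of -5.77 between the SVZ classes. The volume-regulated anion channel subunit Lrrc8a averaged 397, 117.1, 159 and 47.5 TPM in the same order, and was at 1.32 between striatal and low-ribosome cells. Ttyh1 averaged 1020, 615, 1104 and 148 TPM. Hepacam, the adhesion partner of Mlc1, averaged 698, 566, 650 and 157 TPM, so it was close between striatal and low-ribosome cells (log2 0.10), where Mlc1 was at -1.02. Of the anchors that hold Aqp4 in endfeet, Dmd averaged 133.2, 285, 255 and 39.9 TPM and Dtna 269, 193, 192 and 89.1 TPM. The adherens junction cadherin Cdh2 averaged 80.1 TPM in striatum, 59.5 in cortex, 183 in low-ribosome and 71.2 in ribosome-rich cells.

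Ependymal cells line the ventricle beside the SVZ and carry CD133. Their markers Tmem212, Ccdc153 and Pifo were at 0 detected cells in every group. The other 5 were Foxj1, Rarres2, Dynlrb2, Mia and Cfap126, and Rarres2 gave most of the signal, with mean TPM of 184 in striatum (8 of 13 cells) and 272 in low-ribosome cells (58 cells). Foxj1 was found in 1 striatal and 3 low-ribosome cells. Summed TPM of all 8 ependymal markers had a median of 74.6 (0 to 938) in striatum, 0 (0 to 71.7) in cortex, 204 (0 to 2255) in low-ribosome cells and 0 (0 to 310) in ribosome-rich cells.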

How the data were processed

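Smart-seq2 values of 150 cells were used (13 striatum, 4 cortex, 133 SVZ, of which 101 low-ribosome). The deposited values are TPM, made by the authors with STAR 2.4.0g1 and RSEM 1.2.18 on mm10 per the submitters' processing notes; the gene annotation is not given in the sources used here. TPM carries no counts, and the depth of a cell is not known. The tables list 43309 identifiers, 42425 with a symbol; of identifiers sharing one, that with the highest mean was kept, leaving 42405. Each cell was rescaled to 1000000 TPM. Group values are log2 ratios of mean TPM + 1, read at 2-fold, over genes reaching 10 TPM in either group. Detection is 1 TPM, with exact Clopper-Pearson 95% intervals (scipy 1.17.1). Cells are not replicates, so no test was run. Members, lists and class limits were chosen with earlier results of these data known. Named were all members, up to 3 genes per list role by mean TPM, and the 3 most correlated genes per member, leaving out predicted and ribosomal protein genes; some genes these rules select are not reported here and were left out of the marker lists. Alternatives were other pseudocounts, scalings, ribosomal limits, name series and left-out cells. The ratio step was run on SVZ values into which known folds had been put, which checks the code only. RefSeq gave start sites for 7 of 9 members.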

Additional observations from a re-analysis of the deposited data

How the results depend on the processing

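Of 693 alternative values, 588 moved by less than 1.5-fold. Of 504 values of single genes 31 changed sign, 1 of them from a value past 2-fold. Averaging logs over cells gave 5 genes at least 2-fold higher against all SVZ cells both for striatum (median 1.02) and for cortex (median 1.40), and 2 lower between striatum and cortex. For striatum against cortex, median-ratio scaling gave 2 higher and OGStr cells alone 1. Leaving out each cortical cell in turn gave 0 to 1 gene lower against SVZ cells. It gave 0 to 2 higher and 1 to 2 lower for striatum against cortex. The ribosome-rich median was -4.65 by averaged logs, -4.03 in ogp, -1.89 in ogp2 (over the same 8 genes), -4.34 with limits of 2% and 8%, and -1.84 between the lowest and highest terciles by ribosomal share, where Kcnj16 reversed to 0.23. For striatum against low-ribosome cells, 1 gene was lower with values as deposited and with median-ratio scaling, 1 higher with ogp2 cells only, and 1 higher and 1 lower with limits of 2% and 8%. The causes were not tested. Leaving out the 5 SVZ cells with short columns, an alternative added after seeing the data, kept 7 genes lower and a median of -3.14 in ribosome-rich cells. No paired analysis was possible because no animal is named and cells share no pairing number across tissues. Depth is unknown, so a value of 0 may be a transcript that was missed.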
